A study of Mus musculus with 14 samples.

Results

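The genes described here are 39 genes of DNA replication and of the E2F family, out of 46517 genes in the table, followed in 14 mouse lung tumours. They were taken by symbol: 4 genes of origin recognition and licensing (Orc1, Orc6, Cdc6, Cdt1), 12 of the replicative helicase and its activation (Mcm2 to Mcm7, Mcm10, Cdc45, Gins1 to Gins4), 6 of the polymerases and primase (Pola1, Pola2, Prim1, Prim2, Pole, Pold1), 5 of the clamp and clamp loader (Pcna, Rfc2 to Rfc5), 5 of strand binding, fragment joining and chromatin assembly (Rpa1, Rpa2, Fen1, Lig1, Chaf1a), both ribonucleotide reductase subunits of S phase (Rrm1, Rrm2) and 5 E2F factors (E2f1, E2f2, E2f3, E2f7, E2f8). All 39 were at or above 1 FPKM (fragments per kilobase of transcript and per M mapped reads, a level per length) in every library, and all 39 were tested.

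The tumours model small cell lung cancer (SCLC), which is a neuroendocrine tumour type, in untreated mice of 2 engineered lines. Both models carry Rb1 fl/fl and Trp53 fl/fl, which Cre from a Cgrp-promoter adenovirus removes in infected lung cells, so that Rb1 and Trp53 are targeted in both groups alike. RPM mice (n = 11) also carry the Cre-activated LSL-Myc T58A allele, as LSL/LSL in 9 tumours and LSL/+ in replicates 2 and 4, and RPR2 mice (n = 3) carry floxed Rbl2, the gene of p130. Tumours were macro-dissected, RNA came from fresh or flash frozen tissue, and ages are not given in the labels. The Cgrp promoter limits the models to tumours that start in cells using it, and macro-dissected tissue keeps the other cells of the tumour bed.

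In a cell about to enter S phase, the origin recognition complex, Cdc6 and Cdt1 load the Mcm2 to Mcm7 ring onto DNA, and Cdc45 and the GINS complex then turn the ring into a moving helicase. Polymerase alpha with primase starts new strands, Pole and Pold1 extend the strands on the Pcna clamp, and Fen1 and Lig1 join the pieces of the strand made in fragments. E2F factors switch these genes on and off. E2f1, E2f2 and E2f3 are activators held in check by the Rb1 protein, and E2f7 and E2f8 are repressors that are themselves E2F targets. The proteins p130 and p107 (Rbl1) are relatives of Rb1. SCLC is known for loss of Rb1 function and for a high share of dividing cells.

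Many of the 39 promoters carry the letters that E2F factors are known to bind. RefSeq promoters (GRCm38.p6, 250 bases before to 50 bases after a start site) were matched by symbol for 32 of the 39 genes. The words TTTCCCGC, TTTGGCGC, TTTCGCGC and TTTGCCGC, which can overlap, were searched on both strands. At least 1 of them stood in the promoter of 15 of the 32 genes (46.9%), against 704 of 27025 genes with a promoter in the table (2.60%). The word CCAAT was found for 23 of the 32 (71.9%, against 41.1% of all genes) and the E-box CACGTG, a word known to be bound by Myc, for 6 of the 32 (18.8%, against 8.09%). Upstream stretches of 6 genes are shown because they carry the same kind of E2F word and yet belong to genes with different results between the models: E2f3 was higher in RPM, E2f7 and Pola1 were lower there once RPR2 replicate 3 was left out, and Cdc6, Mcm5 and Mcm6 did not pass the test either way. Each runs 5′ to 3′ on the gene's strand, with the E2F words on either strand in capitals. None overlaps an exon of GENCODE vM21, and only that of Cdc6 lies inside an annotated gene, Cdc6 itself.
E2f3, chr13:29986064-29986104, minus strand: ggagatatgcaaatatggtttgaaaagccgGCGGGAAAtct
E2f7, chr10:110745211-110745278, plus strand: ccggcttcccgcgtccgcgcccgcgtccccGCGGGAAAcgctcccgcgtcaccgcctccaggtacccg
Pola1, chrX:93632256-93632323, minus strand: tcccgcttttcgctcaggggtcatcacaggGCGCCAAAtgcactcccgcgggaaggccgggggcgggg
Cdc6, chr11:98907983-98908050, plus strand: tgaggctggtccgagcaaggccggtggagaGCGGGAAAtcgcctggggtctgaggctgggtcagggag
Mcm5, chr8:75109326-75109397, plus strand: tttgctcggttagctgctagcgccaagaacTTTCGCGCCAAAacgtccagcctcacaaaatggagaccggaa
Mcm6, chr1:128359715-128359845, minus strand: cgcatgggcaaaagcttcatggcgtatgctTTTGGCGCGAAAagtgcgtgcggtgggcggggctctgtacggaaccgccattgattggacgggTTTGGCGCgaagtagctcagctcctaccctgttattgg
In Mcm5 and Mcm6 a pair of E2F words on opposite strands overlap, and Mcm6 carries another word nearer its start. A match of letters is a description of the sequence, and binding was not measured.

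The libraries held an estimated 17.3 to 19.8 M mapped reads in RPM and 21.3 to 22.8 M in RPR2, and 12994 to 14974 genes reached 1 FPKM. Myc was at 48.4 to 384 FPKM in the RPM tumours and at 4.68, 6.83 and 13.6 in RPR2, and a gene-level value cannot tell whether the floxed parts of Rb1, Trp53 and Rbl2 are gone. RPR2 replicate 3 stood apart from the other tumours in its alveolar type 2 and neuroendocrine markers. Its 8 alveolar type 2 cell markers summed to 51962 FPKM, against 1256 and 1984 in RPR2 replicates 1 and 2 and at most 892 in RPM, and its mean over 8 neuroendocrine markers was 1.02 on the log2(FPKM + 1) scale, against 7.499 and 7.753 there and 4.12 to 6.33 in RPM. In that library the neuroendocrine identity that the tissue label implies is therefore low, so the calls below were also made without it. The libraries then kept were not free of other cells. The 3 club cell markers summed to 3464 and 25526 FPKM in RPR2 replicates 1 and 2, against 839 in replicate 3 and 0.88 to 1522 in RPM. The mean over the markers of other cell types was 1.79 to 3.44 in RPM and 3.65 to 3.79 in RPR2, so it also differed between the models. The lists in it did not move alike. By group medians, alveolar type 1 and 2, club, endothelial, T and NK, B cell and neutrophil markers were higher in RPR2. Smooth muscle, fibroblast, macrophage and ciliated markers were not. Every RPM mean of the smooth muscle markers (4.13 to 5.33) exceeded every RPR2 one (2.76 to 3.04). Up to 3 of the 8 alveolar type 2 markers were at 0 in an RPM library and none in RPR2. The library identifiers begin with other numbers in RPM than in RPR2, so a library batch and the model cannot be told apart.

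Between the models, 12 of the 39 genes were higher in RPM and none was lower, by limma on log2(FPKM + 1) with Benjamini-Hochberg adjustment over all 15719 genes tested and a threshold of 0.05. Of all genes tested, 18.4% were higher and 22.8% lower, so the share of 30.8% higher lay above the background and the share lower below it. The 12 genes were Gins1, Mcm10, Rrm2, Cdt1, E2f3, Cdc45, Rpa2, Gins2, Rfc4, Mcm7, Orc6 and Fen1. The median difference over the 39 genes was 0.36, against -0.06 over all genes tested. In 7 of the 39 genes (17.9%), all among the 12, every RPM tumour lay above every RPR2 one, against 11.1% of all genes, and no gene of the 39 lay wholly below, against 13.6%.

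Leaving out RPR2 replicate 3 gave calls in both directions and brought both shares closer to those of all genes. Then 8 genes were higher in RPM (background 16.4% of 15406 genes) and 8 were lower (background 27.4%), each 20.5% of the 39. The share higher was thus near its background and the share lower again below it. The 19 genes called in neither fit had differences of -0.33 to 0.55 with all libraries and -0.55 to 0.55 without that one. The 8 higher genes, Gins1, Mcm10, Rrm2, Cdt1, E2f3, Cdc45, Rfc4 and Gins2, were all among the 12. The 8 lower genes were E2f8, E2f7, E2f2, E2f1, Rpa1, Pcna, Pola1 and Lig1. The groups did not overlap for 9 higher genes (background 16.5%) and 8 lower genes (background 28.6%), and the median difference was 0.12, against -0.20 over all genes.

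**Figure D1:**
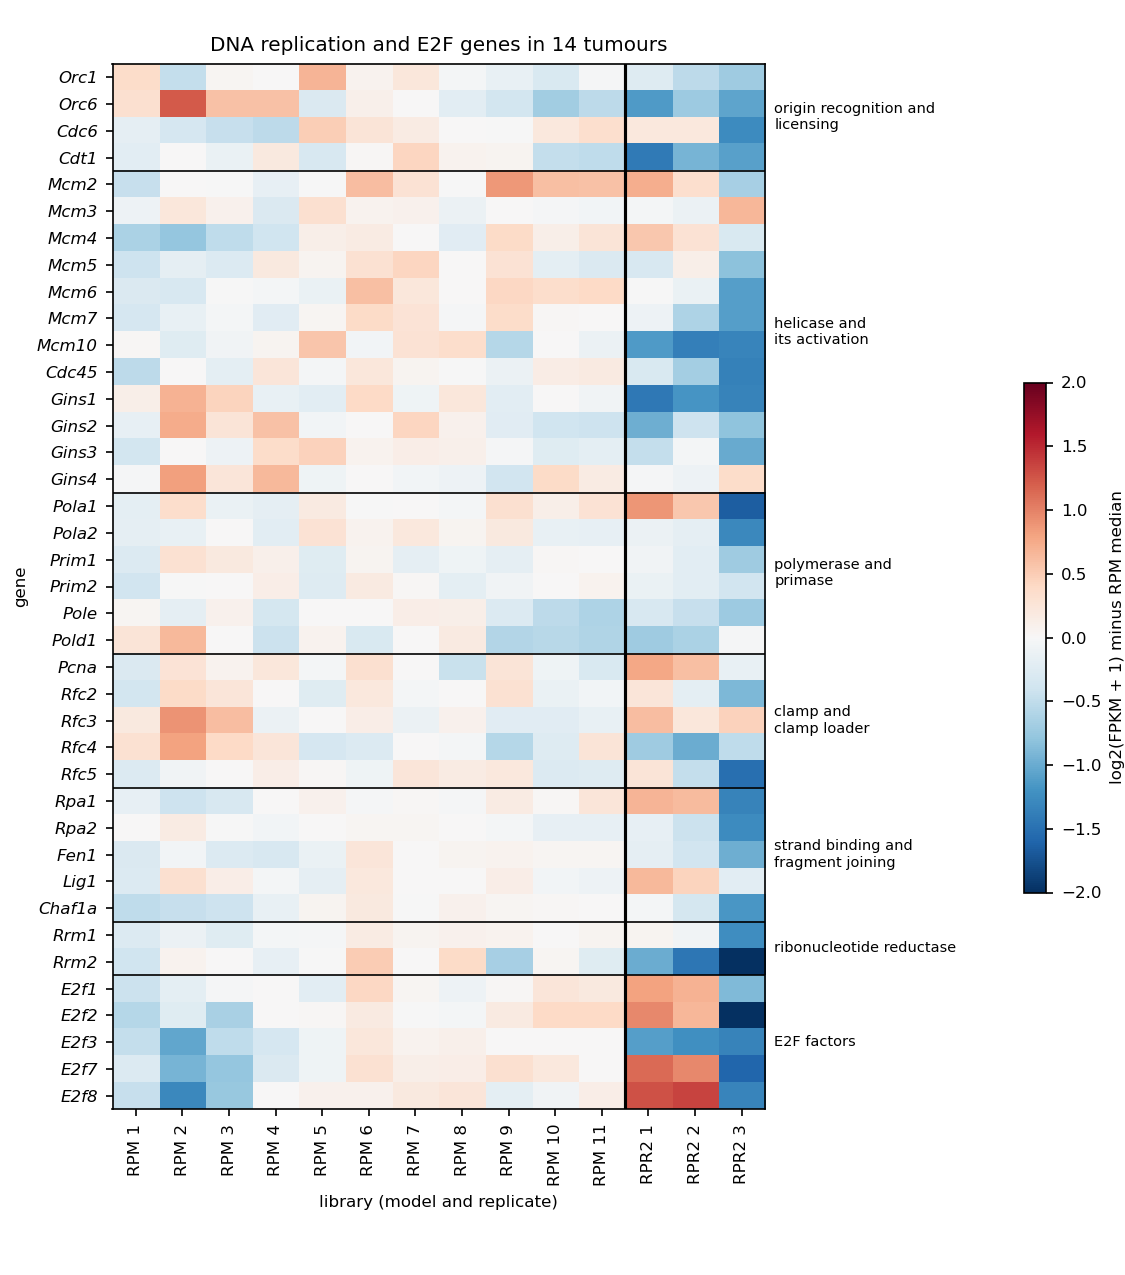
Level of each of the 39 genes (rows, grouped by role) in each of the 14 libraries (columns), as log2(FPKM + 1) minus the median of the 11 RPM libraries, red above and blue below. RPR2 replicate 3 is the lowest of the 14 libraries for 25 genes, a count not made over all genes tested. RPR2 replicates 1 and 2 are above the RPM median for E2f1, E2f2, E2f7 and E2f8 and below it for Gins1, Mcm10, Rrm2 and E2f3.

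RPR2 replicate 3 lay below all RPM tumours for 30 of the 39 genes, within the RPM range for 8 and above all of them only for Mcm3. RPR2 replicate 1 lay below all RPM tumours for 11 genes and above them for 10, and RPR2 replicate 2 for 14 and 8. These counts by library were not made over all genes tested, so whether they are particular to the 39 genes was not tested. The mean over 19 mitotic genes, fixed as a list apart from the 39, was 5.38, 5.07 and 3.97 in RPR2 replicates 1 to 3 and 5.41 to 5.87 in RPM, so it moved with the model and its groups did not overlap. With that mean as a covariate, 8 of the 39 genes were higher (background 14%) and 12 lower (background 32.4%). The calls of Mcm7 (0.02, limma adjusted p = 0.944), Cdc45 (0.15, 0.546), Rpa2 (0.10, 0.683), E2f3 (0.59, 0.127) and Fen1 (-0.07, 0.74) then ended. With the mean over markers of other cell types as a covariate 5 genes were higher (background 11.8%) and none lower (background 13.2%). There the calls of Mcm7 (0.63, limma adjusted p = 0.0789), Cdc45 (0.63, 0.0711), Gins2 (0.36, 0.262), Rfc4 (0.55, 0.176), Orc6 (0.45, 0.324), Rpa2 (0.51, 0.0948) and Fen1 (0.44, 0.143) ended. In bulk tissue, fewer cells of a type and less RNA per cell cannot be told apart.

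Of the licensing genes, Cdt1 and Orc6 were called higher in RPM with all libraries, and Orc1 and Cdc6 were not. Cdt1, the loader of the helicase ring (chromosome 8, 122568015 to 122573554, GRCm38, plus strand), ranged from 51.0 FPKM over a median of 73.1 to 98.4 in RPM and stood at 26.9, 37.7 and 33.8 in RPR2 replicates 1, 2 and 3. Each of the 11 RPM values exceeded each of the 3 RPR2 values, with no sign of RPR2 replicate 3 standing apart. The difference was 1.07 (SE 0.18) in log2(FPKM + 1), with a limma adjusted p of 0.000338, and 1.09 (SE 0.22) without that library.

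Orc6, the smallest subunit of the origin recognition complex, ranged from 34.3 over 56.2 to 133 FPKM in RPM, the widest RPM range of the 39 genes (3.90-fold), and stood at 25.2, 33.6 and 26.6 in RPR2. Its groups did not overlap, though the lowest RPM tumour and RPR2 replicate 2 were close. The difference was 1.04 (SE 0.32, limma adjusted p = 0.0182), and without RPR2 replicate 3 it was 0.99 with an adjusted p of 0.0503. Without RPR2 replicate 1 it was 0.96 with a limma adjusted p of 0.0742. Orc1, the largest subunit, was at 2.49 to 6.84 FPKM in the RPM tumours and at 3.08, 2.40 and 1.99 in RPR2 (limma adjusted p = 0.0681). Under median-of-ratios scaling, quantile normalization and the length adjustment, all described below, Orc1 was called higher with and without RPR2 replicate 3. With the length adjustment its limma adjusted p was 0.0161 with all libraries and 0.0181 without that one. Cdc6, the loading ATPase, was at 9.10 to 19.4 FPKM in the RPM tumours and at 15.8, 15.8 and 5.10 in RPR2 (limma adjusted p = 0.474).

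Within each library, Cdt1 was set against Gmnn, which encodes its inhibitor geminin, and against Cdc6, as differences of log2(FPKM + 1). Cdt1 minus Gmnn ranged from -0.70 over 0.13 to 1.08 in RPM and was -1.08, -0.70 and -0.29 in RPR2, so that the groups overlapped. The mean difference was 0.83 (two-sided exact permutation p = 0.0165, adjusted p = 0.044 over 8 gene pairs tested). The adjusted exact permutation p was 0.179 without RPR2 replicate 1, 0.103 without replicate 2 and 0.0559 without RPM replicate 1, 3, 6, 8, 10 or 11. Cdc6 minus Cdt1 was -3.07 to -1.50 in RPM and -0.73, -1.20 and -2.51 in RPR2, with an adjusted exact permutation p of 0.0806. Without RPR2 replicate 3 that difference grew from -0.79 to -1.31 and passed (adjusted exact permutation p = 0.0205), as it did without RPM replicate 5 (0.0466).

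Of the helicase ring 1 of 6 subunits, Mcm7, was called higher in RPM, and so were 4 of the 6 activation partners, against 18.4% of all genes. Ring and partners were not tested against each other. Mcm7 was at 97.2, 123 and 160 FPKM (lowest, median, highest) in RPM and at 114.7, 79.5 and 56.8 in RPR2, where the groups overlapped. The difference of 0.63 (SE 0.19, limma adjusted p = 0.0171) fell to 0.39 without RPR2 replicate 3 (adjusted p = 0.123), and the call was also lost without RPR2 replicate 2 (0.63, adjusted p = 0.0605). Mcm7 shares sequence with the overlapping gene Ap4m1 on the other strand, and whether the counting used strand is not given in the sources used here.

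Mcm6 was at 100.4, 126 and 190.7 FPKM in the RPM tumours and at 125, 114 and 58.0 in RPR2. Mcm5 was at 39.1, 52.5 and 71.2 in RPM and at 42.0, 57.2 and 29.2 in RPR2. For both subunits RPR2 replicates 1 and 2 lay inside the RPM range and replicate 3 below it, and neither passed (limma adjusted p = 0.0845 and 0.215). With the length adjustment described below both were called higher (limma adjusted p = 0.00188 and 0.0364), and Mcm6 also under median-of-ratios scaling. Mcm2 was at 56.4, 77.8 and 142 FPKM in the RPM tumours and at 129, 98.4 and 48.7 in RPR2. Mcm4 was at 25.5, 44.4 and 58.0 in RPM and at 64.8, 54.2 and 35.7 in RPR2. RPR2 replicate 1 lay above all RPM tumours for Mcm4 and inside their range for Mcm2, replicate 3 lay below that range for Mcm2 alone, and neither gene passed (limma adjusted p = 0.855 and 0.341).

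Mcm3 went the other way in RPR2 replicate 3. It was at 84.7, 104 and 131 FPKM in the RPM tumours and at 101, 95.4 and 166 in RPR2, the highest value of the 14 libraries being that of RPR2 replicate 3. It made up 14.9% to 25.4% of the summed FPKM of Mcm2 to Mcm7 in RPM, 17.5% and 19.1% in RPR2 replicates 1 and 2, and 42.0% in replicate 3, where the sum of the 6 was lowest (394 FPKM, against 420 to 696 in RPM). This Mcm3 value was seen in 1 tumour and has no replicate.

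Gins1, a subunit of the GINS complex (chromosome 2, 150905400 to 150931280, plus strand), showed the smallest p of the 39 genes. It ranged from 28.2 over 32.9 to 53.8 FPKM in the RPM tumours and stood at 11.6, 14.03 and 12.4 in RPR2. The 3 RPR2 tumours were alike and all lay below the lowest RPM tumour. The difference was 1.42 (SE 0.19, limma adjusted p = 3.83e-05), and 1.40 without RPR2 replicate 3 (adjusted p = 0.000208).

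Its partners in the 4-subunit complex did not move as a unit. Gins2 was at 32.8, 44.1 and 74.1 FPKM in the RPM tumours and at 22.0, 32.9 and 24.7 in RPR2, higher by 0.81 (SE 0.24, limma adjusted p = 0.0131) with groups that touched at their edges. Without RPR2 replicate 1 its call was lost (0.69, limma adjusted p = 0.0747). Gins2 shares sequence with the overlapping gene Gse1. Gins3 did not pass (3.94 to 7.70 FPKM in RPM; 3.56, 5.18 and 2.17 in RPR2; limma adjusted p = 0.0668), nor did Gins4 (27.7 to 64.9 FPKM in RPM; 35.7, 33.7 and 47.3 in RPR2; adjusted p = 0.829). Gins1 made up 18.4% to 33.6% of the summed FPKM of the 4 genes in RPM and 15.9%, 16.3% and 14.4% in RPR2.

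Mcm10, which helps to start the helicase (chromosome 2, 4989714 to 5012791, minus strand), was at 12.6, 19.2 and 28.7 FPKM in the RPM tumours and at 8.27, 6.81 and 7.13 in RPR2. The groups did not overlap. It was higher by 1.29 (SE 0.19, limma adjusted p = 0.000107), and by 1.27 without RPR2 replicate 3. Cdc45, the partner of ring and GINS, was at 23.2, 34.0 and 40.5 FPKM in the RPM tumours and at 27.4, 20.9 and 12.8 in RPR2, so that RPR2 replicate 1 lay within the RPM range. Its difference of 0.77 (SE 0.20, limma adjusted p = 0.00576) fell to 0.49 without RPR2 replicate 3 (adjusted p = 0.0443).

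**Figure D2:**
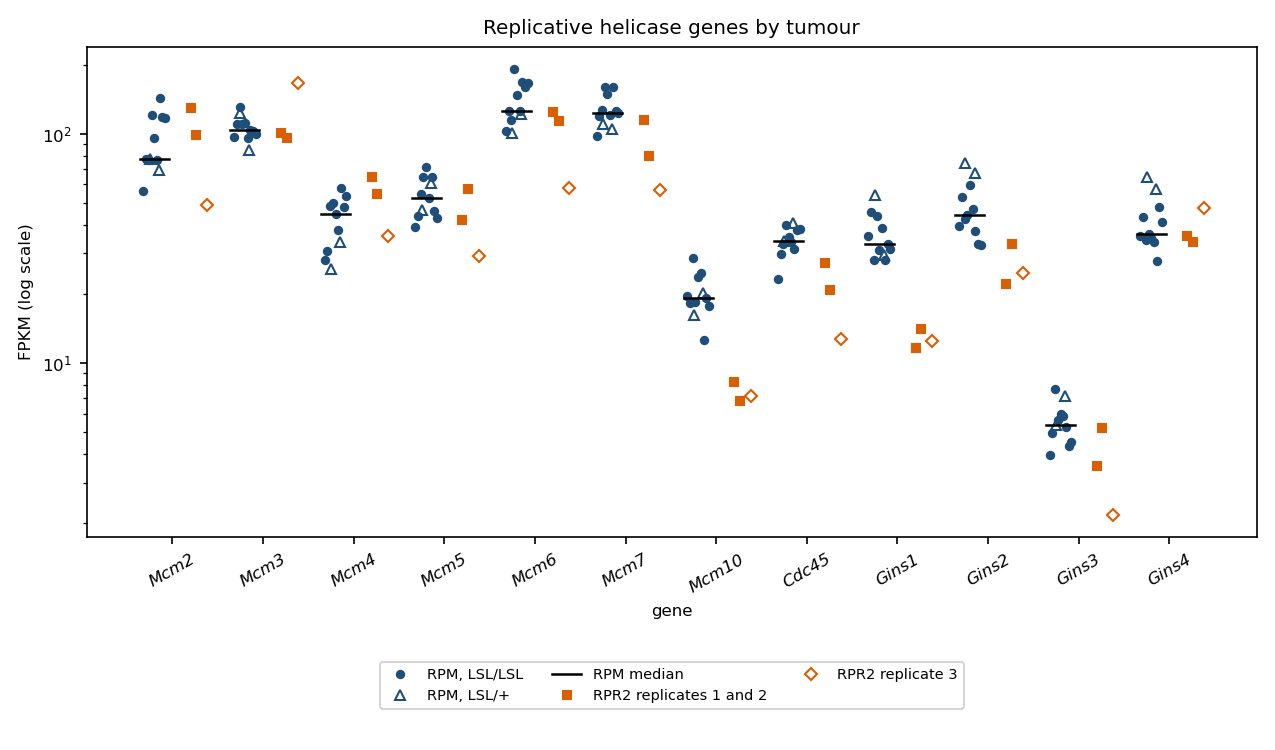
FPKM on a log axis of the 12 genes of the replicative helicase and its activation in each tumour: filled circles are RPM LSL/LSL, open triangles RPM LSL/+, filled squares RPR2 replicates 1 and 2, open diamonds RPR2 replicate 3, and bars the RPM median. For Gins1 and Mcm10 all RPR2 points lie below all RPM points, and for Mcm3 the point of RPR2 replicate 3 (166 FPKM) is the highest.

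None of the 6 polymerase and primase genes passed with all libraries. Pola1, the catalytic subunit of polymerase alpha, was at 13.3, 15.5 and 20.0 FPKM in the RPM tumours and at 29.5, 22.9 and 4.27 in RPR2. RPR2 replicates 1 and 2 lay above every RPM tumour and replicate 3 below every one. The difference turned from 0.14 (SE 0.36, limma adjusted p = 0.788) to -0.65 (SE 0.18, adjusted p = 0.00877) without replicate 3. Pola2, the regulatory subunit of the same enzyme, was at 26.5 to 38.3 FPKM in the RPM tumours and at 28.4, 27.3 and 12.2 in RPR2 (0.52, limma adjusted p = 0.053; 0.15 without replicate 3). Pola1 minus Pola2 within a library was -1.17 to -0.46 in RPM and 0.05, -0.24 and -1.32 in RPR2 (adjusted exact permutation p = 0.148, and 0.0205 without replicate 3, where the difference of -0.39 became -0.79).

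Prim1 and Prim2, the primase subunits, did not differ in ratio between the models beyond the spread between tumours. Prim1 minus Prim2 was 1.19 to 1.71 in RPM and 1.46, 1.40 and 1.06 in RPR2 (exact permutation p = 0.297). Pole and Pold1, the catalytic subunits of the polymerases that extend the strands, and both primase genes gave differences of 0.19 to 0.36, none past the threshold (limma adjusted p from 0.124 to 0.307). In Pold1 the RPR2 tumours were at 31.2, 32.9 and 51.0 FPKM against 33.6 to 81.4 in RPM.

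Of the clamp and its loader, Rfc4 was higher in RPM. This loader subunit was at 49.9, 74.5 and 131 FPKM in the RPM tumours and at 45.3, 36.9 and 52.2 in RPR2, where replicate 3 was the highest of the 3 and lay within the RPM range. The difference was 0.78 (SE 0.24, limma adjusted p = 0.0153), and 0.90 without replicate 3, while without RPR2 replicate 2 it was 0.65 and not called (adjusted p = 0.093). The other loader subunits Rfc2, Rfc3 and Rfc5 differed by 0.31, -0.33 and 0.55 and did not pass (limma adjusted p = 0.237, 0.234 and 0.0916). Rfc2 and Rfc5 share sequence with the overlapping genes Lat2 and Wsb2.

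Pcna, the sliding clamp (chromosome 2, 132249162 to 132253314, minus strand), has a near-identical copy in the table. Pcna was at 167, 226 and 282 FPKM in the RPM tumours and at 389, 345 and 203 in RPR2, with a difference of -0.41 (SE 0.21, limma adjusted p = 0.125) and of -0.69 without RPR2 replicate 3 (adjusted p = 0.0118). The processed pseudogene Pcna-ps2 (chromosome 19, 9283380 to 9284160) matches 781 bases of Pcna transcripts at 99.2% identity. It was at 84.7, 113 and 209.6 FPKM in RPM and is listed at 0 in all 3 RPR2 libraries. Pcna plus Pcna-ps2 gave 271, 377 and 444 FPKM in the RPM tumours and 389, 345 and 203 in RPR2, so that replicates 1 and 2 lay inside the RPM range. With the sum in place of Pcna the difference was 0.24 (SE 0.19, limma adjusted p = 0.336), and -0.04 (adjusted p = 0.853) without RPR2 replicate 3. The sum was thus not called lower. FPKM is a level per length, and Pcna transcripts have a longer median annotated length (1518 bases) than the copy. A read given to the copy therefore weighs more in this sum than a read given to Pcna. The level of Pcna with the reads of the copy returned to it was not computed. Of the other 38 genes only Cdc6 and Rfc5 had such a copy among the annotated genes at other positions, at no more than 0.07 FPKM in any library.

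The strand binding subunits Rpa1 and Rpa2, parts of the same RPA complex, differed in their ratio between the models. Rpa1, the large subunit, was at 45.5, 60.7 and 71.8 FPKM in the RPM tumours and at 98.1, 95.05 and 23.3 in RPR2. Rpa2, the middle subunit, was at 52.0, 58.5 and 65.4 FPKM in RPM, the narrowest RPM range of the 39 genes (1.26-fold), and at 51.9, 43.3 and 23.99 in RPR2. RPR2 replicates 1 and 2 were above all RPM tumours for Rpa1 and below all of them for Rpa2. Rpa1 differed by -0.03 (limma adjusted p = 0.95), and by -0.70 without replicate 3 (SE 0.16, adjusted p = 0.00288). Rpa2 differed by 0.60 (SE 0.17, limma adjusted p = 0.0108), and by 0.28 without replicate 3 (adjusted p = 0.0724). Rpa1 minus Rpa2 within a library was -0.51 to 0.45 in RPM and 0.91, 1.12 and -0.04 in RPR2 (two-sided exact permutation p = 0.0247, adjusted p = 0.0495 over 8 pairs), and the value of replicate 3 lay among those of RPM. This call was lost without RPR2 replicate 1 or 2 (adjusted exact permutation p = 0.205 and 0.278) and without any 1 of RPM replicates 1, 2, 3 and 6 to 11 (0.0559 to 0.0629).

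Fen1, the flap nuclease, was at 35.6, 44.7 and 53.2 FPKM in the RPM tumours and at 39.5, 34.0 and 22.1 in RPR2, higher by 0.46 (SE 0.16, limma adjusted p = 0.0369) and by 0.22 without replicate 3 (adjusted p = 0.258). Its call was also lost without RPR2 replicate 2 (0.0615) and without any 1 of RPM replicates 6 to 11 (0.0507 to 0.054). Lig1, the DNA ligase, was at 41.6, 50.2 and 63.1 FPKM in the RPM tumours and at 79.4, 68.8 and 43.4 in RPR2, with a difference of -0.28 (limma adjusted p = 0.193) and of -0.53 without replicate 3 (adjusted p = 0.011). RPR2 replicates 1 and 2 were above all RPM tumours for Lig1 and replicate 3 within them. Chaf1a, a subunit of the factor that deposits histones behind the fork, did not pass (18.9 to 31.7 FPKM in RPM; 26.8, 21.2 and 11.7 in RPR2; limma adjusted p = 0.132). Fen1, Lig1 and Chaf1a share sequence with the overlapping genes Gm10143, Zswim9 and Ubxn6.

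Ribonucleotide reductase, which makes the deoxynucleotides for replication, differed in its small subunit, while calls of the large one depended on scaling and covariate. Rrm2 (chromosome 12, 24708241 to 24714146, plus strand) was at 46.4, 73.7 and 106 FPKM in the RPM tumours and at 36.6, 26.4 and 12.4 in RPR2. Every RPM value exceeded every RPR2 value, and RPR2 replicate 3 was the lowest. The difference of 1.60 (SE 0.27, limma adjusted p = 0.000262) was the largest of the 39 genes, and was 1.18 without replicate 3 (adjusted p = 0.00143). Rrm1, the large subunit, was at 59.2, 71.7 and 80.8 FPKM in the RPM tumours and at 74.2, 68.5 and 29.6 in RPR2, with a difference of 0.40 (limma adjusted p = 0.134) and of -0.01 without replicate 3 (adjusted p = 0.945). With the length adjustment described below Rrm1 was called higher (0.54, limma adjusted p = 0.00547), also without replicate 3 (0.36, 0.0497). With the mitotic mean as a covariate it was called lower (-0.39, limma adjusted p = 0.0234). Rrm2 minus Rrm1 was -0.69 to 0.38 in RPM and -1.0, -1.34 and -1.19 in RPR2. This was the only pair of the 8 whose groups did not overlap, with a mean difference of 1.196 (two-sided exact permutation p = 0.00275, the smallest that 364 label assignments allow, adjusted p = 0.022), and the value of replicate 3 lay between those of replicates 1 and 2. Without RPR2 replicate 1 or 2 the differences were 1.28 and 1.11 with an adjusted exact permutation p of 0.103, where the smallest unadjusted p is 0.0128.

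**Figure D3:**
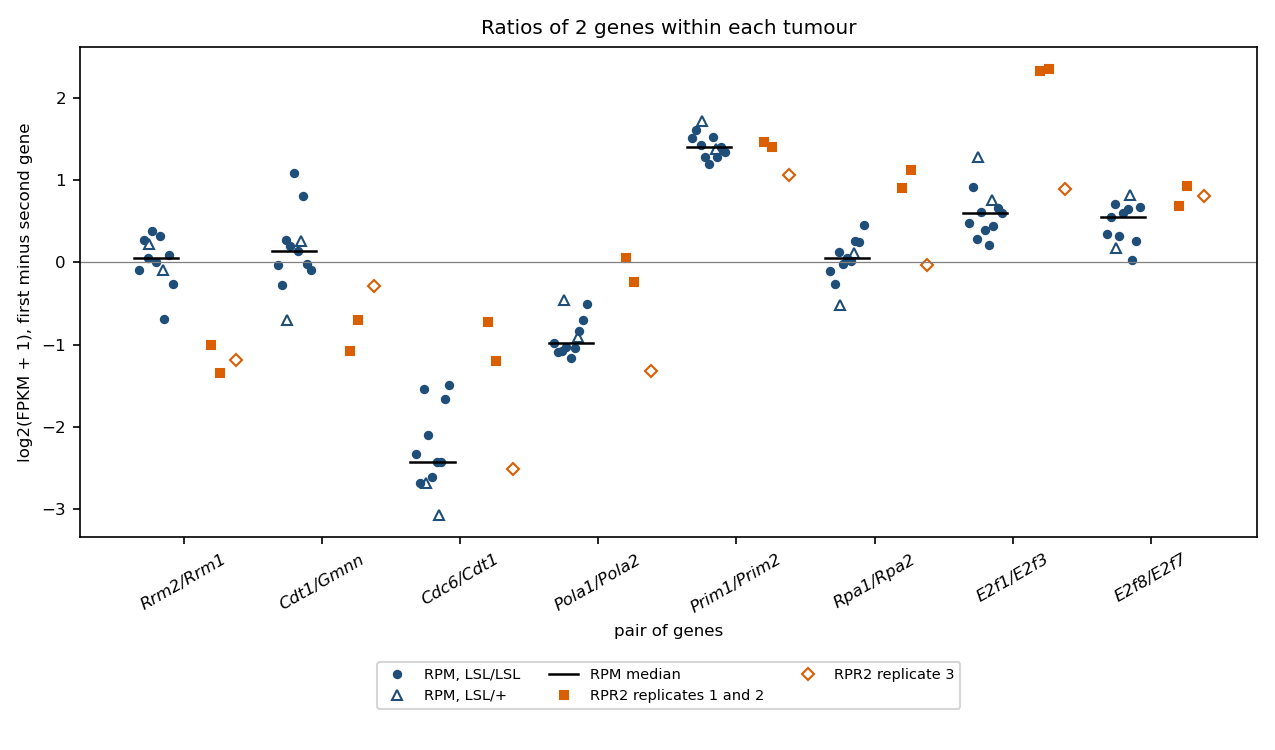
Difference of log2(FPKM + 1) between 2 genes within each tumour, for the 8 pairs tested, with symbols for RPM LSL/LSL (filled circles), RPM LSL/+ (open triangles), RPR2 replicates 1 and 2 (filled squares) and RPR2 replicate 3 (open diamonds), and bars at the RPM median. For Rrm2/Rrm1 the RPR2 values of -1.34 to -1.0 all lie below the RPM values, and for E2f1/E2f3 and Rpa1/Rpa2 the diamond lies apart from the squares.

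The E2F factors fell into 2 patterns. E2f3, an activator (chromosome 13, 29906575 to 29986063, minus strand), was at 6.65, 14.8 and 17.5 FPKM in the RPM tumours and at 6.38, 5.74 and 5.25 in RPR2. Every RPM value exceeded every RPR2 value, with the lowest RPM value, that of the LSL/+ replicate 2, close to them. The difference was 1.04 (SE 0.23, limma adjusted p = 0.00224), and 0.98 (adjusted p = 0.00906) without RPR2 replicate 3.

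The other 4 E2F genes were highest in RPR2 replicates 1 and 2 and lowest in RPR2 replicate 3. E2f1, an activator, was at 14.8, 20.2 and 27.3 FPKM in the RPM tumours and at 36.01, 33.2 and 10.6 in RPR2. E2f2, an activator, was at 9.31, 15.1 and 20.3 in RPM and at 30.3, 24.6 and 2.33 in RPR2. In both, replicates 1 and 2 lay above all RPM tumours and replicate 3 below all of them. E2f7, a repressor (chromosome 10, 110745439 to 110787384, plus strand), was at 2.77, 6.21 and 7.99 FPKM in the RPM tumours and at 14.8, 13.1 and 1.41 in RPR2. E2f8, its closest relative (chromosome 7, 48866429 to 48881596, minus strand), was at 3.26, 9.45 and 11.4 in RPM and at 24.4, 25.7 and 3.20 in RPR2. In both repressors, too, replicates 1 and 2 lay above and replicate 3 below all RPM tumours, and E2f8 shares sequence with the overlapping transcript Gm2788.

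With all libraries E2f1, E2f2, E2f7 and E2f8 gave differences of -0.21, 0.19, -0.29 and -0.62, none past the threshold (limma adjusted p from 0.294 to 0.778). Without RPR2 replicate 3 they were lower in RPM by limma with Benjamini-Hochberg adjustment, E2f1 at -0.75 (adjusted p = 0.00471), E2f2 at -0.84 (0.0145), E2f7 at -1.16 (0.00663) and E2f8 at -1.50 (0.00232). E2f1 minus E2f3 within a library was 0.21 to 1.28 in RPM and 2.33, 2.34 and 0.89 in RPR2, with a mean difference of -1.25 (two-sided exact permutation p = 0.00824, adjusted p = 0.033 over 8 pairs). Without RPR2 replicate 1 or 2 its adjusted exact permutation p was 0.154 and 0.103. E2f8 minus E2f7 was 0.02 to 0.82 in RPM and 0.68, 0.92 and 0.80 in RPR2 (adjusted exact permutation p = 0.0703; 0.0448 and 0.0466 without RPM replicate 4 or 5). E2f3 made up 15.5% to 23.6% of the summed FPKM of the 5 genes in RPM, 5.70% and 5.61% in RPR2 replicates 1 and 2, and 23.1% in replicate 3. The sum was 42.9 to 80.1 FPKM in the RPM tumours and 112, 102 and 22.7 in RPR2, so that replicate 3 had an E2f3 share inside the RPM range at a lower total. Its E2f1 share (46.4%) lay above the RPM range of 27.5% to 41.7%, and its E2f2 share (10.2%, RPM 19.4% to 29.5%) and E2f7 share (6.20%, RPM 6.45% to 11.6%) below it.

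**Figure D4:**
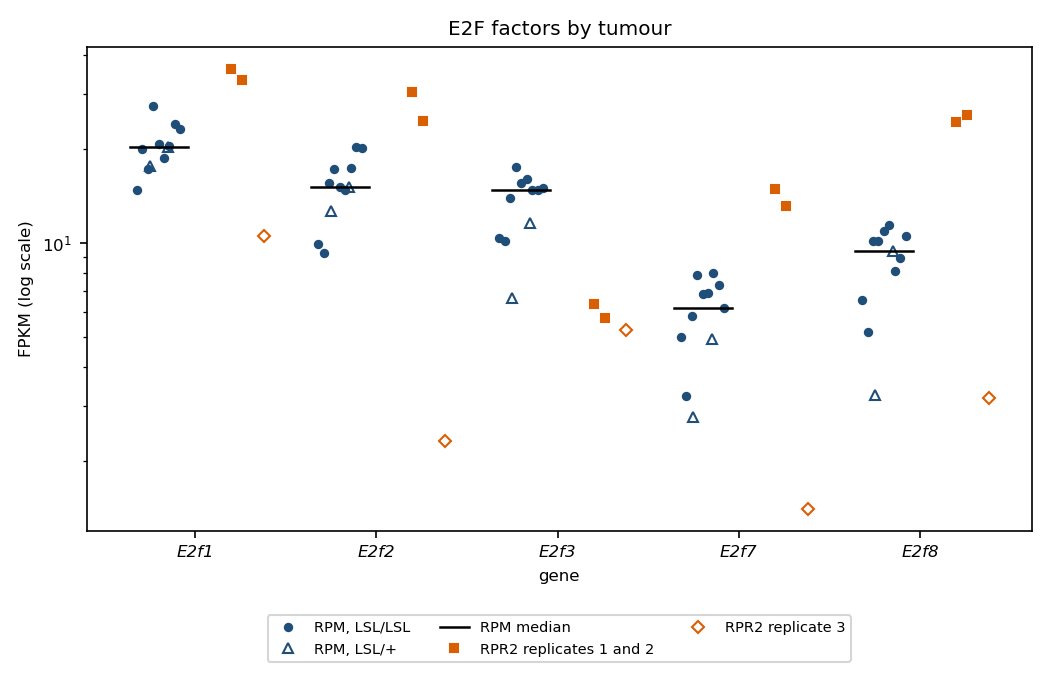
FPKM on a log axis of the 5 E2F genes in each tumour, with symbols for RPM LSL/LSL (filled circles), RPM LSL/+ (open triangles), RPR2 replicates 1 and 2 (filled squares) and RPR2 replicate 3 (open diamonds), and bars at the RPM median. RPR2 replicates 1 and 2 lie above every RPM tumour for E2f1, E2f2, E2f7 and E2f8, and all 3 RPR2 tumours lie below every RPM tumour for E2f3.

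How libraries are put on 1 scale bears on these counts. The alternatives were TPM (each library's FPKM set to the same total), median-of-ratios scaling, quantile normalization and an adjustment for transcript length, and they placed the median of all genes at -0.24, 0.05, 0.08 and 0.01. The median of the 39 genes was 0.17, 0.47, 0.39 and 0.48, which is 0.41, 0.42, 0.31 and 0.47 above those medians. Under TPM 7 of the 39 were higher (background 11.4%), under median-of-ratios scaling 19 (21.5%), under quantile normalization 17 (23.3%) and with the length adjustment 20 (22.4%). Beyond the 12 genes, Chaf1a, Pola2, Orc1 and Gins3 gained a higher call under each of the last 3. Mcm6, Rfc5 and Rrm1 gained one under median-of-ratios scaling and the length adjustment. Mcm5 gained one under the length adjustment, and Pole and Prim2 under quantile normalization. The calls of Mcm7, E2f3, Cdc45, Rpa2 and Fen1 ended under TPM (limma adjusted p = 0.288, 0.0556, 0.148, 0.242 and 0.496) and that of Mcm7 also under quantile normalization (0.103). With an exact Wilcoxon test in place of limma the calls of Mcm7 and Fen1 ended (adjusted p = 0.0963 for both). The backgrounds of lower calls were 23.0%, 20.7%, 19.5% and 22.6%, and the sole lower calls were Rfc3 under TPM and Pcna under quantile normalization, and none of the 12 higher genes changed direction with all libraries, while Mcm7, Rpa2 and Fen1 did under TPM without RPR2 replicate 3. Without that library 4 genes were higher and 9 lower under TPM (backgrounds 9.15% and 36.5%), 14 and 4 under median-of-ratios scaling (22.6% and 20.1%), 12 and 7 under quantile normalization (22.8% and 20.2%) and 15 and 5 with the length adjustment. The median of all genes under TPM was then -0.57. Cdt1, Gins1, Mcm10 and Rrm2 were higher, and E2f1, E2f7, E2f8 and Rpa1 lower, under all 5 scalings without that library. E2f2, Pola1 and Lig1 were not called lower there under median-of-ratios scaling or the length adjustment, nor Pola1 under quantile normalization or Pcna under median-of-ratios scaling.

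Transcript length moved with the result. The length of a gene was the median over its annotated protein-coding transcripts where it had any, short ones included. This gave 658 bases for Mcm4 and 795 for Mcm7. Lengths of the transcripts expressed in these tumours were not measured, so the values below and the length adjustment rest on the annotation. The genes called higher had a median annotated transcript length of 1487.5 bases and the uncalled ones 2743.5. Without RPR2 replicate 3 the higher genes had 1968 and the lower ones 3405.5. Over all genes tested, sorted into 4 equal groups by transcript length, the median difference was 0.09 in the group of the shortest and -0.14 in that of the longest, and 0.05 and -0.40 without replicate 3. The part of length in the calls was not tested beyond the adjustment above, where 20 genes were higher (background 22.4%), and 15 higher and 5 lower without replicate 3 (backgrounds 22.6% and 22.5%).

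**Figure D5:**
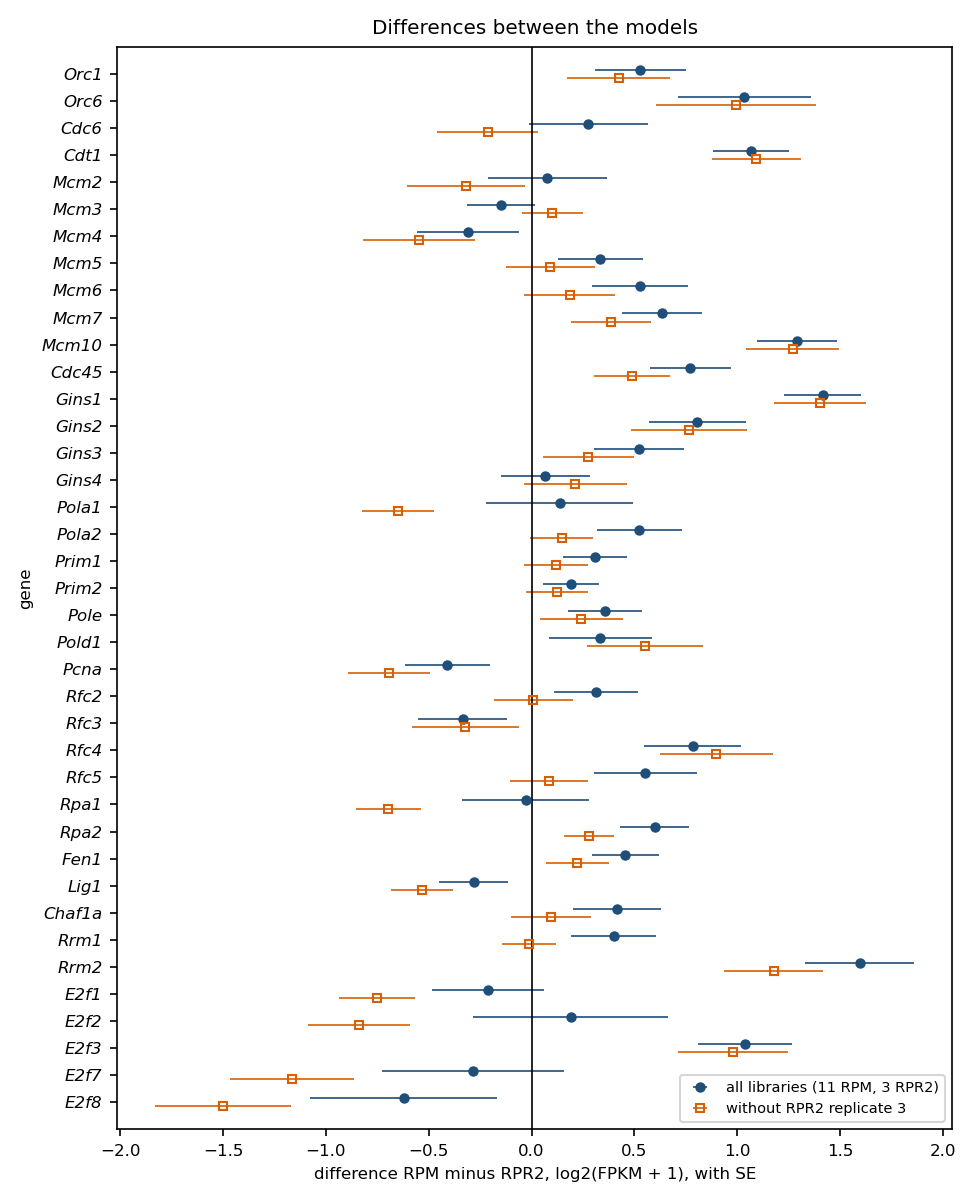
Difference RPM minus RPR2 in log2(FPKM + 1) for the 39 genes, with its standard error, in all libraries (filled circles) and without RPR2 replicate 3 (open squares). Gins1, Mcm10, Cdt1, E2f3 and Rfc4 keep their place, while E2f1, E2f2, E2f7, E2f8, Pola1 and Rpa1 move to the left.

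The other genes of the pathway were 57 from 5 lists. Of these 19 (33.3%) were higher in RPM and 3 (5.26%) lower, with a median of 0.27, against 18.4% and 22.8% of all genes. Without RPR2 replicate 3, 14 (24.6%) were higher and 13 (22.8%) lower, with a median of 0.06, against 16.4% and 27.4%. Of 18 further origin and helicase genes 6 were higher and none lower (4 and 3 without RPR2 replicate 3), among them Dbf4 (0.98, limma adjusted p = 0.000307), the activating subunit of the kinase that fires origins, Recql4 (1.21, 0.000378) and Wdhd1 (1.04, 0.00426, and 0.57 without that library). Of 14 further synthesis genes 5 were higher and 1 lower (5 and 3 without RPR2 replicate 3). Among the higher were Rnaseh2b (1.10, limma adjusted p = 7.17e-05), Pole3 (0.86, 0.0006) and Pold2 (0.86, 0.00103), while Pold4, the smallest subunit of polymerase delta, was lower (-1.26, 0.00103).

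Among 6 nucleotide genes 2 were higher (2 higher and 1 lower without RPR2 replicate 3), Dut, which clears dUTP (1.22, limma adjusted p = 0.00188), and Tk1, thymidine kinase (0.74, 0.00277). Rrm2b, the p53-responsive alternative to Rrm2, stood at 3.26 to 5.97 FPKM in the RPM tumours and at 13.6, 12.4 and 2.43 in RPR2, and differed by -0.61 (limma adjusted p = 0.151; -1.28 and 0.000151 without replicate 3). Of 7 chromatin genes 2 were higher (1 higher and 1 lower without RPR2 replicate 3), the histone chaperone Nasp (0.998, limma adjusted p = 0.000198) and Uhrf1 (0.74, 0.0448), the second of which lost its call without RPR2 replicate 3 (adjusted p = 0.357) and without any 1 of RPM replicates 3 to 11 (0.0518 to 0.0633).

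The fifth list held 12 further E2F partners, pocket protein and G1/S genes, of which 4 were higher and 2 lower, against 2 and 5 without RPR2 replicate 3. Mybl2 (1.19, limma adjusted p = 0.00159) and Tfdp1, the dimer partner of E2Fs (1.04, 0.00413, and 0.60 without that library), were higher. Rbl1, which encodes p107, was at 2.88, 5.69 and 8.34 FPKM in the RPM tumours and at 17.3, 15.7 and 11.02 in RPR2, lower in RPM by 1.24 (limma adjusted p = 0.000578) with no overlap of groups and called in every alternative run. Rb1 was at 5.19, 8.89 and 22.6 FPKM in the RPM tumours and at 39.4, 49.8 and 3.58 in RPR2 (-0.89, limma adjusted p = 0.218; -2.0 and 0.00105 without replicate 3). Rbl2, floxed in RPR2, was at 3.43, 6.68 and 9.90 FPKM in the RPM tumours and at 3.58, 7.55 and 3.34 in RPR2 (0.43, limma adjusted p = 0.207).

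Genes with and without an E2F word in the promoter were among those called. Of the 15 genes with an E2F word 3 were higher in RPM (median difference 0.34), of the 17 with a promoter but no such word 7 were higher (0.46), and 2 of the 7 without a listed promoter were higher (0.31), against 18.4% of all genes. Without RPR2 replicate 3, 2 of the 15 were higher and 4 lower, and 4 of the 17 were higher and 4 lower, against 16.4% and 27.4%. These counts are a description with no test.

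Within RPM, the 39 genes varied by 1.26-fold (Rpa2) to 3.90-fold (Orc6) between the lowest and highest tumour. RPM replicate 1 was the lowest of the 11 for 13 genes and the highest for none. RPM replicate 2 was the highest for 12 genes, among them Orc6, Gins1, Gins2, Rfc3 and Rfc4, and the lowest for 7, among them E2f3, E2f7 and E2f8. RPM replicate 6 was the highest for 10 genes, among them Rrm2, E2f1 and E2f3, and the lowest for none. The titles give replicates 10 and 11 a shared number, as they do replicates 6 and 7. Over the 39 genes the median absolute log2 difference was 0.06 between replicates 10 and 11, the smallest of the 55 pairs, and 0.18 between 6 and 7, while the pairs with different numbers spanned 0.10 to 0.48. If a shared number marks a mouse, these tumours are not independent. With the number as a random effect 11 of the 39 genes were higher, against 2584 of all 15719 genes tested, and Fen1 was lost.

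The number of Myc alleles was compared within RPM, 9 LSL/LSL against 2 LSL/+ tumours. None of the 39 genes passed by limma with Benjamini-Hochberg adjustment (smallest adjusted p = 0.223), and over 14862 genes 0% were higher and 0.00673% lower. At an unadjusted p under 0.05, 2 of the 39 were higher and 4 lower in LSL/LSL, against 12.2% and 5.06% of all genes. Gins4 was at 64.9 and 57.4 FPKM in the LSL/+ tumours and at 27.7, 35.8 and 47.9 (lowest, median, highest) in LSL/LSL, a difference of -0.71 (SE 0.18, limma adjusted p = 0.223). Orc6 was at 133 and 85.1 in LSL/+ and at 34.3, 48.5 and 84.4 in LSL/LSL (-1.03, SE 0.30), and Gins2 at 74.1 and 67.1 against 32.8, 42.3 and 59.8 (-0.72, SE 0.21). In these 3 genes both LSL/+ tumours lay above all LSL/LSL tumours. E2f3 was at 6.65 and 11.6 in LSL/+ and at 10.2, 14.8 and 17.5 in LSL/LSL (0.62, SE 0.23), and Cdc6 at 10.6 and 9.10 against 9.62, 15.3 and 19.4 (0.52, SE 0.22), with overlapping groups in both. With 2 tumours in a group, even the difference of -1.03 in Orc6 was not called (limma adjusted p = 0.233). The lack of calls therefore does not show equal levels in LSL/LSL and LSL/+ tumours.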

How the data were processed

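RNA-seq of 14 mouse tumours (11 RPM, 3 RPR2) was used as the single table of FPKM values that the authors deposited, 46517 genes and a reporter row at 0 throughout. RSEM 1.2.12, Bowtie 1.0.1 and mm10 are listed in the submitters' processing notes, without roles. The annotation release is not given in the sources used here, nor is the strand setting of the counting or any scaling. In RSEM, reads of near-identical genes are shared out between them. Columns were matched to samples by title and groups taken from the genotype labels. Symbols were found for 46005 identifiers (GENCODE vM21 on GRCm38, which mm10 also is).

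Read counts are not among its values. Depth was estimated from the steps of low values in short genes, and on a transcript of 2 kb 3 reads are then worth 0.0674 to 0.0889 FPKM, counting error only. Values were analysed as log2(FPKM + 1), which understates changes of low genes. Genes with at least 1 FPKM in at least 3 libraries were tested in R 4.3.3 with limma 3.58.1 (empirical Bayes with a trend, Benjamini-Hochberg over all genes tested, threshold 0.05), with no covariate. Gene pairs were tested by two-sided exact permutation of the group labels (364 assignments), adjusted over the 8 pairs, and the smallest p is 0.00275 (0.0128 without an RPR2 library). Copies of the genes were searched with blastn 2.17.0 at 95% identity or more over at least 200 bases. The search covered annotated GENCODE vM21 transcripts, and the genome sequence was not searched. The fit was tested on simulated data.

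The 39 genes, the pathway and marker lists and the gene pairs were chosen with earlier results of these data known. All 39 genes are reported. Values per tumour are given for genes called or with separate groups, for the E2F genes, Mcm2 to Mcm7 and Pcna and for genes whose call depends on an RPR2 library, and the other genes by range. Of each pathway list, up to 3 called genes with the smallest p and the pocket protein genes are named, and of the allele comparison 5 genes. Rrm2b and the genes named for overlapping sequence were chosen after their values were seen. The labels do not say that tumours of a group came from separate mice, so p-values measure the spread between these samples.

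As alternatives, the pseudocount was set to 0.1 or 0.01 and the filter dropped or set to a mean FPKM of 5. The others were TPM, median-of-ratios and quantile scaling, array weights, each library left out, LSL/LSL tumours only, title number as a random effect, the mitotic or other-cell marker mean as a covariate, pseudogene copies added and an exact Wilcoxon test. The length adjustment, and the scalings and copies combined with leaving out RPR2 replicate 3, were chosen after seeing the data.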

Additional observations from a re-analysis of the deposited data

Results flagged for a closer look

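Among the 9 LSL/LSL tumours of RPM, Mcm3 in RPM replicate 5 stood at 130.7 FPKM, against 95.5 to 110.7 in the other 8. Its gap to the next tumour was 0.528 of the group's range on the log2(FPKM + 1) scale, above Dixon's 95% critical value of 0.493. Each of the 39 genes was examined in this way, and chance marks about 1 group in 20, so 1 mark among 39 genes is no more than that rate gives. The cause was not tested.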

How the results depend on the processing

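Beside the values above, 34 alternatives were run for the comparison of the models. Of 1190 pairs of a named gene and an alternative, 1018 kept their direction and side of the threshold, 20 changed sign uncalled in both, 78 lost a call, 57 gained one and 17 changed sign with a call on either side. Cdt1, Gins1, Mcm10 and Rrm2 were called higher in all 34, and Fen1 in 18. For the 39 genes, the 12 higher became 7 with TPM scaling (4 if RPR2 replicate 3 was also left out), 19 with median-of-ratios scaling, 20 with the length adjustment and 5 with the mean of other-cell markers as a covariate, a fit in which Mcm10, Rrm2, E2f3, Cdt1 and Gins1 were higher. The 0 lower became 1 with TPM scaling or quantile normalization, 9 with array weights and 12 with the mitotic mean. With array weights 6577 of all 15719 genes tested were lower, a larger share than 9 of 39. Each without RPR2 replicate 3, the 0 lower became 5 (length), 9 (TPM), 4 (median-of-ratios), 7 (quantile) and 7 (pseudogenes added). Leaving out 1 library at a time gave 8 to 15 higher and 0 to 8 lower. Of the 57 pathway genes, the 19 higher became 9 with TPM scaling (background 11.4%) and 11 with the other-cell mean (11.8%). With TPM scaling and without RPR2 replicate 3 they became 4 (9.15%). The 3 lower became 16 with array weights (6577 of all 15719 genes) and 15 with the mitotic mean (32.4%). Without RPR2 replicate 3 the lower ones were 10 (length, 22.5%), 16 (TPM, 36.5%) and 8 (median-of-ratios, 20.1%). They were 10 with quantile normalization (20.2%) and 13 with pseudogenes added (4227 of 15407 genes). Each of these lower counts was a smaller share than that of all genes. For the pathway genes, 1 library at a time gave 14 to 19 higher and 2 to 13 lower. The median of the 39 differences, 0.357, became 0.169 (TPM), 0.470 (median-of-ratios), 0.186 (array weights), -0.0694 (mitotic mean), 0.483 (length) and, without RPR2 replicate 3, -0.270 (TPM), 0.188 (quantile) and 0.124 (pseudogenes added), with 0.124 to 0.618 over single libraries. Signs changed for E2f2 with array weights (-0.626), the mitotic mean (-1.73) and, without RPR2 replicate 3, FPKM (-0.839), TPM (-1.25), quantile (-0.608) and pseudogenes added (-0.839), and for Pola1 with array weights (-0.502), the mitotic mean (-1.18) and, without replicate 3, FPKM (-0.649), TPM (-1.05) and pseudogenes added (-0.649). Over single libraries E2f2 spanned -0.839 to 0.778 and Pola1 -0.649 to 0.618. Signs also changed with TPM without replicate 3 for Mcm7 (-0.0161), Rpa2 (-0.120), Fen1 (-0.176) and Uhrf1 (-0.102), and with the mitotic mean for Fen1 (-0.0694) and Uhrf1 (-0.288). Of the gene pairs, Rpa1/Rpa2 was -0.575 with LSL/LSL tumours only (adjusted exact permutation p = 0.0582). Over single libraries the differences were 1.11 to 1.28 (Rrm2/Rrm1), 0.641 to 1.03 (Cdt1/Gmnn), -1.31 to -0.416 (Cdc6/Cdt1), -0.795 to -0.109 (Pola1/Pola2), -0.00535 to 0.192 (Prim1/Prim2), -0.977 to -0.400 (Rpa1/Rpa2), -1.731 to -1.003 (E2f1/E2f3) and -0.397 to -0.275 (E2f8/E2f7). Without RPR2 replicate 1 or 2 no pair passed, and the fewer assignments then allow no p under 0.0128; without single RPM libraries Cdt1/Gmnn reached an adjusted p of 0.0559 and Rpa1/Rpa2 0.0629, and E2f8/E2f7 passed without RPM replicate 4 or 5 (0.0448 and 0.0466). The allele comparison gave 0 genes of the 39 in every alternative. The cause of these changes was not tested. No paired analysis was possible because the labels give the 2 models no shared replicate numbers.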
